A study of Mus musculus with 12 samples.

Results

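The genes described here are the phase II conjugation enzymes of the mouse liver, the UDP-glucuronosyltransferases (UGTs), the sulfotransferases (SULTs) and the glutathione transferases (GSTs). They were taken as all protein-coding genes of the count table whose symbol starts with Ugt1, Ugt2, Ugt3, Sult, Gsta, Gstm, Gstp, Gstt, Gsto, Gstk, Gstz or Mgst and which had at least 10 reads summed over the 12 libraries. They were thus selected on name and on the summed reads of all groups together, not on a difference between groups. This gave 57 of the 55414 genes in the table, namely 18 UGT, 14 SULT and 25 GST genes. The livers came from female C57Bl/6J mice, 8 to 12 weeks old, in 4 groups of 3, and all mice received 2 intraperitoneal injections. The first was NaCl or 300 mg/kg FeSO4, which models acute iron overload, and the second, 6 h later, was PBS or 10 mg/kg dexamethasone (DEX), a synthetic glucocorticoid (GC). Livers were taken 2 h after the second injection, that is 8 h after the first, which gives the groups NaCl/PBS, FeSO4/PBS, NaCl/DEX and, with both agents, FeSO4/DEX. All are wild-type animals, and a single injection models acute, not chronic, iron loading.

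Phase II enzymes join a polar group to a drug, hormone, bilirubin or reactive metabolite so that it can leave the cell in bile or urine. UGTs sit in the membrane of the endoplasmic reticulum and transfer glucuronic acid from UDP-glucuronate, SULTs are cytosolic and transfer sulfate from PAPS, and GSTs couple glutathione to electrophiles such as products of lipid peroxidation. GST genes of the alpha, mu and pi classes are known targets of the antioxidant transcription factor NRF2, and many UGT and SULT genes are controlled by the nuclear receptors CAR and PXR.

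Library totals lay between 16335651 and 23827340 reads, and the 57 genes took 0.874% to 1.19% of them. The first principal component, which holds 66.2% of the variance, set the 6 FeSO4 mice apart from the 6 NaCl mice. Levels are given below as normalized counts, which are TMM-scaled reads at the mean effective library size, and comparisons as the log2 fold change (LFC) of edgeR's quasi-likelihood model with a Benjamini-Hochberg adjusted p (FDR) over the 13857 genes tested. A gene is called when its FDR is 0.05 or less. Of the 57 genes, 54 passed the filter on low counts and were tested. Ugt1a2 (65 reads in all libraries together), Gsto2 (48 reads) and Mgst2 (45 reads) were too low and have no test. Mgst2 and Gsto2 are also the genes just inside the limit of 10 reads, and Sult4a1 with 9 and Sult2b1 with 8 reads lay just outside it. In all, 45 of the 54 tested genes reached the filter level in every library. Gsta1 and Gsta13 reached it only in FeSO4 mice, so that they could pass the filter only by being high there. Their values are given as a description. The main counts after FeSO4 are given with and without them, and counts under other settings include them where tested, unless stated otherwise. Ugt1a10 and Ugt2b38 reached the filter level in only 2 FeSO4 libraries each, so they could not have passed on FeSO4 mice alone. Ugt1a10 was at it in all 6 NaCl libraries and in no FeSO4/DEX library.

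Some of these genes share sequence, and their reads are less certain. The 9 protein-coding Ugt1a genes of chromosome 1 use 4 common exons. Ahead of these, a check near the canonical start found an exon of the gene's own in all but Ugt1a6a and Ugt1a6b. Reads in the common exons belong to several genes at a time, and STAR leaves such reads out of its gene counts. A Ugt1a count therefore comes from the part of the gene that no other gene covers. For Ugt1a6a, 79% of those bases lie at or behind the first common exon, in introns that one of its annotated transcripts retains, so that its count can also hold reads from unspliced RNA of the other Ugt1a genes. More than 25% of the 100-base windows of Gsta1, Gsta13, Gsta2, Gstp1, Gstp2, Sult2a2 and Ugt1a6b were also found in transcripts of another gene, with 80.8% for Gsta1 and 85.3% for Gsta13. Without Ugt1a6a and these 7 genes, 11 genes were called higher and 4 lower in FeSO4/PBS against NaCl/PBS mice. The genes left out include the pair that passed the filter only in FeSO4 mice. With all 54 tested genes kept, 15 were higher and 5 lower. Of all 13857 tested genes, 27.2% were higher and 27.3% lower in that comparison.

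In livers of NaCl/PBS mice the levels per length ran from 0.0598 for Gsto2 to 862 for Mgst1, in CPM per kilobase of exons not shared with another gene on the same strand. Mgst1, a membrane-bound glutathione transferase, stood at 862 ± 80.4 (SD, n = 3) CPM per kb. Gstm1, the leading mu class gene, followed with 306 ± 45.4 and Gsta3, an alpha class gene, reached 178 ± 22.6. Mgst1 was above every other gene in every NaCl/PBS mouse, and the lowest NaCl/PBS mouse of Gstm1 was above the highest mouse of Gsta3. Among the UGTs, Ugt1a1, the enzyme that conjugates bilirubin, had 263 ± 5.37 CPM per kb, Ugt2b5 143 ± 11.8 and Ugt2b36 132 ± 14.8, where Ugt2b5 and Ugt2b36 did not differ beyond their spread. Among the SULTs, Sult2a2 (201 ± 70.6), Sult2a1 (183 ± 59.7) and Sult1a1 (155 ± 9.89) led, and their order is not resolved because the mice overlapped. The order depends on the length used. With the longest coding transcript in place of the unshared exons, Ugt1a1 fell to 74.4 CPM per kb and from place 3 to place 17 among all 57 genes, Gsta3 rose to 608 and place 2, and Ugt3a1 led the UGTs with 180.3.

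**Figure D1:**
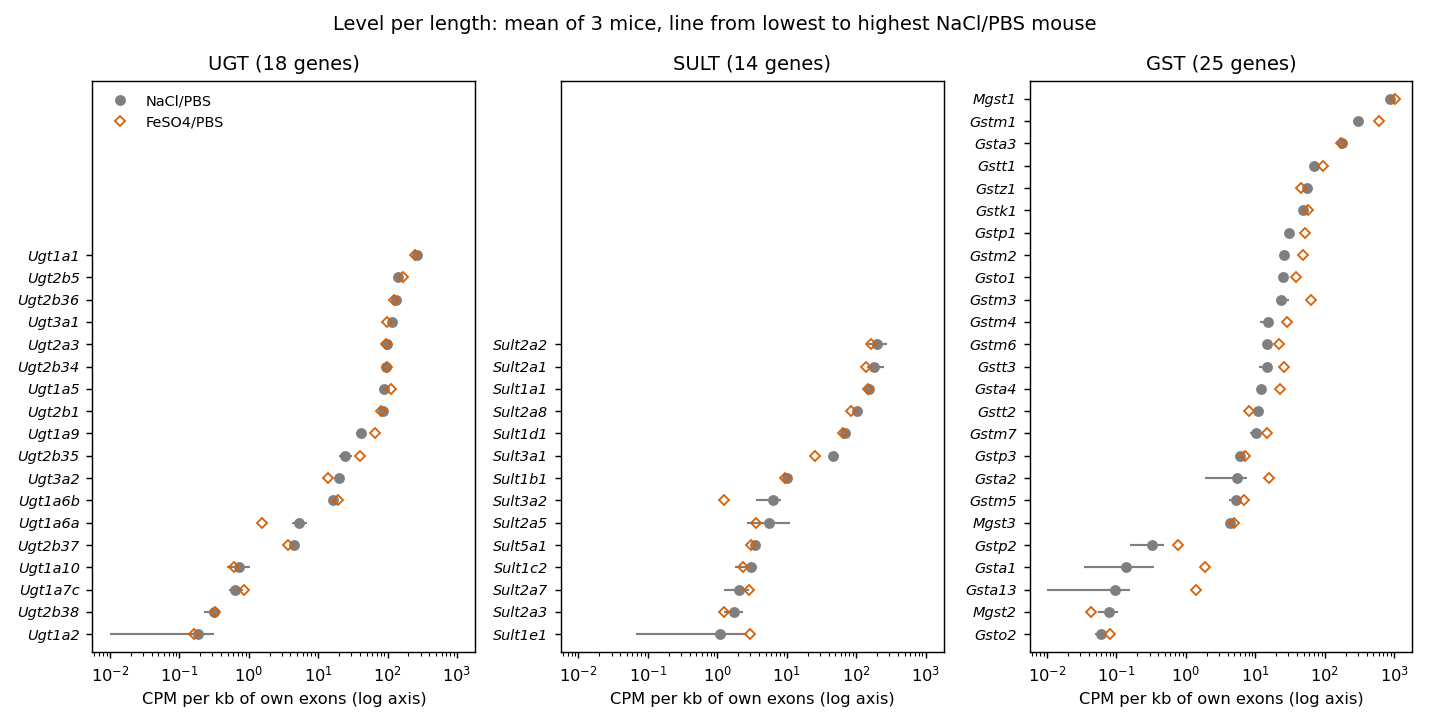
Level per length of the 57 genes (CPM per kb of unshared exons, log axis) in NaCl/PBS mice (filled points, with a line from the lowest to the highest of 3 mice) and FeSO4/PBS mice (open diamonds, mean of 3 mice). Lines that reach 0.01 belong to a gene with a mouse at 0 reads, and Mgst1 is the highest gene in both groups.

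The comparison of FeSO4/PBS with NaCl/PBS mice asks how acute iron overload alone changes these genes. Most of the changes were rises of GST genes. Of 23 tested GST genes, 14 were higher and 1 was lower (12 and 1 of 21 without Gsta1 and Gsta13), while of 17 UGT genes 1 was higher and 2 were lower, and of 14 SULT genes 0 were higher and 2 were lower. Together 20 of the 54 genes were called, 15 higher and 5 lower (18 of 52, 13 higher, without Gsta1 and Gsta13), beside 54.5% of all tested genes called, 27.2% higher and 27.3% lower. Called genes are thus no more frequent among the 54 than among all genes. The median LFC was 0.61 for GST genes, or 0.58 without Gsta1 and Gsta13, -0.03 for UGT and -0.28 for SULT genes, and -0.02 for all genes tested. Beyond an LFC of 1 in size, 2 of these 52 genes were higher, Gsta2 and Gstm3 (all genes 12.5%), and 2 lower, Ugt1a6a and Sult3a2 (14.7%). These counts are relative to the bulk of genes. With scaling by library size alone, which lowers the median LFC of all genes from -0.02 to -0.34, the split was 10 higher and 12 lower. Gsta1 and Gsta13 are among these 10. None of the 20 called genes changed its sign under that scaling, while Gsto1 (FDR = 0.072), Gstm6 (0.21), Gstm7 (0.27), Gstt1 (0.35) and Gstt3 (0.12) lost their call.

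**Figure D2:**
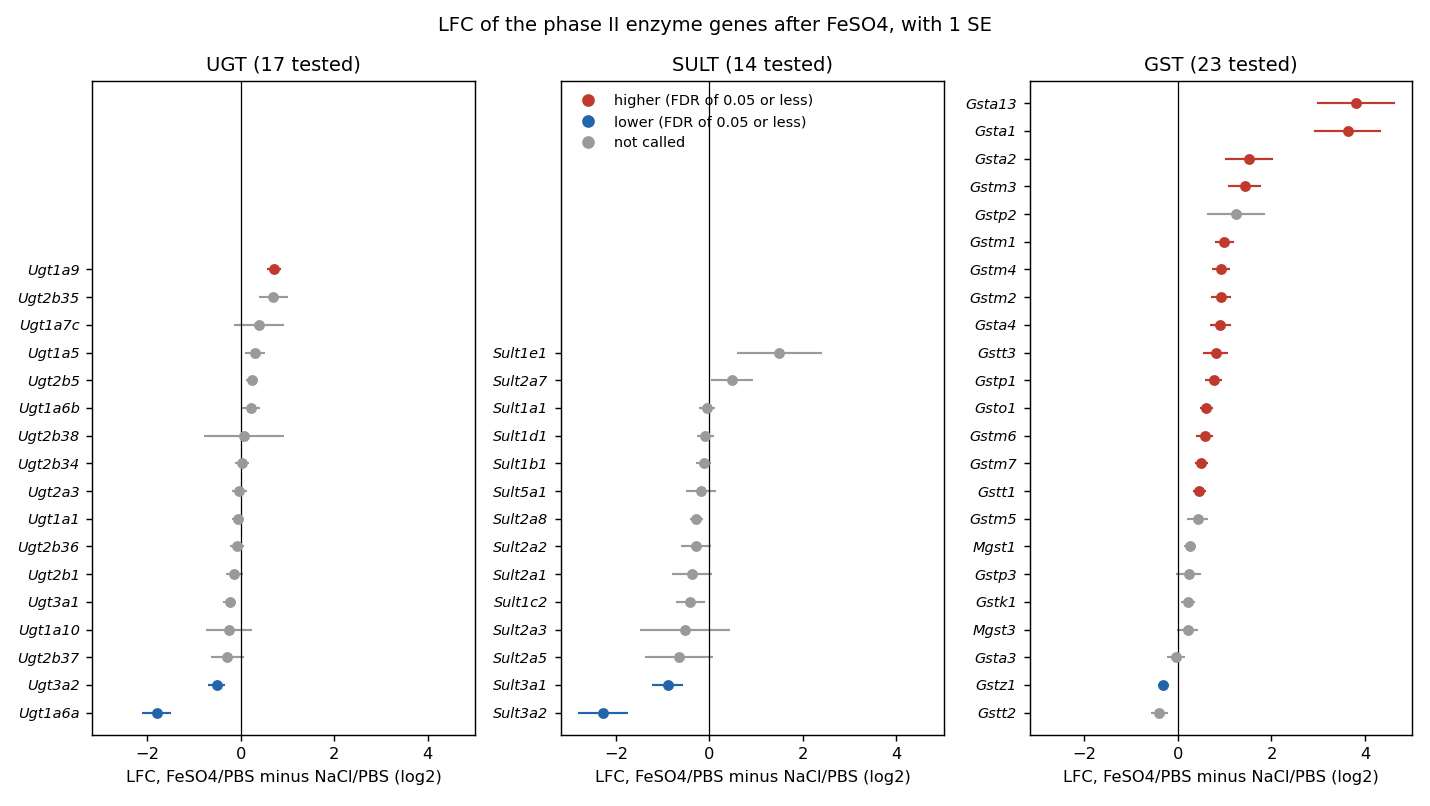
LFC of each tested gene in FeSO4/PBS against NaCl/PBS mice (points, log2) with 1 SE (bars), by family and in order of LFC. Red and blue points have an FDR of 0.05 or less, and 14 of 23 GST genes are red, with Gsta1 and Gsta13 among them, against 1 of 17 UGT and 0 of 14 SULT genes.

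Of the 7 mu class genes, 6 were called higher after FeSO4 with LFCs of 0.50 to 1.43, and 4 of the 7 with scaling by library size alone. The 7 Gstm genes lie side by side on chromosome 3 (GRCm39, chr3:107803137-107952210, 149 kb). Gstm1 (ENSMUSG00000058135, chr3:107919380-107925380) had 16889, 16222 and 12680.5 normalized counts in NaCl/PBS and 37442, 29465 and 24310.2 in FeSO4/PBS mice. The groups did not overlap (29% of all tested genes were higher without overlap), and the rise was 1.99-fold (LFC 0.99, SE 0.21, FDR = 0.0011). Gstm3 (ENSMUSG00000004038, chr3:107871012-107881730) rose from 1039, 707 and 681 to 3013, 2468 and 1039 normalized counts (LFC 1.43, SE 0.35, FDR = 0.0037). Its FeSO4/PBS mouse 3 was level with the highest control mouse, and the other 2 were clearly above. Gstm2 rose from 1157, 900.5 and 880.3 to 2437, 1894 and 1237 (LFC 0.92, SE 0.22, FDR = 0.0024) and Gstm4 from 723, 502 and 731 to 1505, 1219 and 991 (LFC 0.92, SE 0.20, FDR = 0.0013). Gstm6 (LFC 0.58, FDR = 0.014) and Gstm7 (LFC 0.50, FDR = 0.0096) rose less. Gstm5 had 150.3, 108 and 139 against 232, 180.1 and 119 normalized counts and was not called (LFC 0.42, FDR = 0.12). Its groups overlapped, and without FeSO4/PBS mouse 3 it was called (LFC 0.64, FDR = 0.014).

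The promoters of Gstm2 and Gstm3 are shown because these 2 mu class genes were called after DEX as well. The sequences are the 300 bases before the annotated start of the canonical transcript, read 5′ to 3′ on the strand of the gene from GRCm39, at chr3:107893786-107894085 (minus strand) and chr3:107876600-107876899 (minus strand). Capitals mark a match to the core of the xenobiotic response element, TNGCGTG, on either strand, of which Gstm2 holds 1 at 202 bases before its start and Gstm3 none.
Gstm2: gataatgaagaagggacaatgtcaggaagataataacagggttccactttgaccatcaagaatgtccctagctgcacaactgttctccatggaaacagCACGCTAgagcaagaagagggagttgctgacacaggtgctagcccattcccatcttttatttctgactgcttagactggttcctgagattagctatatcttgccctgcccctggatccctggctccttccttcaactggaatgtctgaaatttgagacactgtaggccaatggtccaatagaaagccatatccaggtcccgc
Gstm3: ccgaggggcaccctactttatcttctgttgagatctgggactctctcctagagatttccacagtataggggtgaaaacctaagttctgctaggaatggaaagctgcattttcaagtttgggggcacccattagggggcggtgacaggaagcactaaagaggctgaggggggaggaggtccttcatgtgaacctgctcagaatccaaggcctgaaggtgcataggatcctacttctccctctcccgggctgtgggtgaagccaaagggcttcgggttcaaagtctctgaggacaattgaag

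Of the alpha class genes on chromosome 9, Gsta2 and Gsta4 were called higher. They lie with Gsta1 and Gsta13 within 173 kb (chr9:78090056-78263077). Gsta4, which detoxifies the lipid peroxidation product 4-hydroxynonenal, rose from 729, 648 and 594 to 1569, 1221 and 903 normalized counts (LFC 0.91, SE 0.22, FDR = 0.0036). Gsta2 rose from 321, 295 and 81.3 to 881, 704 and 414 (LFC 1.52, SE 0.51, FDR = 0.021). Its control mouse 3 was the lowest of all 12 mice, and the call was lost without it (FDR = 0.071) or without FeSO4/PBS mouse 1 (FDR = 0.062). Gsta1 and Gsta13 were near the limit of detection in control livers, with 12, 1 and 1 reads of Gsta1 and 5, 3 and 0 reads of Gsta13 in NaCl/PBS mice. After FeSO4 they reached 92.7, 30.5 and 17.9 and 60.5, 28.5 and 6.38 normalized counts, with LFCs of 3.63 ± 0.72 (SE) and 3.81 ± 0.83 (SE), which are no test because of the filter. In both, FeSO4/PBS mouse 1 was the highest of all mice. Without NaCl/PBS mouse 1 the LFC of Gsta1 was 5.55, and over all mice left out in turn it ranged from 2.68 to 5.55. Gsta3, the abundant alpha class gene, lies alone on chromosome 1 and was not called, with 22998, 19613 and 17978 against 20962, 21792 and 16244 normalized counts. The interval of its LFC (2 SE to either side) was -0.43 to 0.36.

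The promoters of Gsta1 (chr9:78137627-78137926) and Gsta13 (chr9:78164111-78164410), both on the plus strand, are shown because the pair was near the limit of detection in NaCl mice and are near copies also before their starts. Over 311 aligned positions 92.3% were identical. Capitals mark bases that do not match in the alignment, and the runs at the ends come from a shift of the annotated start. The promoter of Gsta3 (chr1:21310506-21310805, plus strand) follows, with the core of the antioxidant response element, TGACNNNGC, in capitals at 118 bases before the start. Neither Gsta1 nor Gsta13 holds that core in this window.
Gsta1: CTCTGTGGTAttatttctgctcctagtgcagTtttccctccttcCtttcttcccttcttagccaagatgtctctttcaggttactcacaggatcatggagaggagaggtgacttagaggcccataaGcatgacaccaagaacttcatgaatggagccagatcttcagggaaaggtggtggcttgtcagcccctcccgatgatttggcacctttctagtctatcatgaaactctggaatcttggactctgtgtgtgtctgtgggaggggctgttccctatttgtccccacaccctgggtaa
Gsta13: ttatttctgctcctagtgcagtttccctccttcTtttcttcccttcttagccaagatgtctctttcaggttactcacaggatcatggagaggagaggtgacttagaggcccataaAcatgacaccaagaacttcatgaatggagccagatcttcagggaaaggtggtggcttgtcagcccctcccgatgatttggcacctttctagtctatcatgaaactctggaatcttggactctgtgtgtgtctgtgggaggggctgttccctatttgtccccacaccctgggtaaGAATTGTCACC
Gsta3: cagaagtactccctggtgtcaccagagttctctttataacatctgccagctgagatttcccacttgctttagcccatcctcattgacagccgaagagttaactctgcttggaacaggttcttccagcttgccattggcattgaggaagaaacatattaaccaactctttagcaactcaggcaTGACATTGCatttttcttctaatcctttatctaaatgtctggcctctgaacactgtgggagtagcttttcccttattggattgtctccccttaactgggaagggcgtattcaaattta

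Outside these clusters 4 GST genes rose. Gsto1, an omega class enzyme that reduces dehydroascorbate, rose from 1913, 1842 and 1570.2 to 2825, 2585 and 2711 normalized counts (LFC 0.61, SE 0.14, FDR = 0.0024), with little spread among the FeSO4/PBS mice. Gstp1, the pi class gene, rose from 1057, 1030.4 and 877 to 2113, 1449 and 1472 (LFC 0.76, SE 0.18, FDR = 0.0024). Gstt1, a theta class gene, rose from 3965, 3706 and 4051 to 6289, 5389.6 and 4427 (LFC 0.46, SE 0.13, FDR = 0.0099). In all 3 genes the groups did not overlap. Gstt3 was called higher (LFC 0.81, FDR = 0.021) although its groups overlapped, and its call was lost without FeSO4/PBS mouse 1 (FDR = 0.063), FeSO4/PBS mouse 2 (0.076) or NaCl/PBS mouse 2 (0.082). Gstz1, the maleylacetoacetate isomerase of tyrosine breakdown, was the 1 GST gene called lower, from 12512, 11277 and 11769.8 to 10199.5, 10191 and 8316 normalized counts (LFC -0.31, SE 0.12, FDR = 0.045). Its groups did not overlap, but only 9 of 19 alternative settings kept the call. Mgst1, the most abundant GST gene, had 37624, 35325 and 31230.3 against 44631, 42865 and 37005 normalized counts (LFC 0.26, FDR = 0.097), and Gstk1, Gstm5, Gstp2, Gstp3, Gstt2, Gsta3 and Mgst3 were not called either, with LFCs of -0.39 to 1.25. Gstt2 fell without overlap (LFC -0.39), from 1103, 986 and 1053 to 866, 908 and 613, beside 31% of all tested genes. It was called lower by library size alone (LFC -0.72, FDR = 0.0021), with no filter on low counts (0.02) and without FeSO4/DEX mouse 1 (0.043). In the other direction, Gstk1 (FDR = 0.024) and Gstp2 (0.048) were called higher without FeSO4/PBS mouse 3, and Mgst1 with DESeq2 (0.035).

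Few UGT genes were called after FeSO4. None of the 8 Ugt2 genes of chromosome 5 (chr5:87037626-87572062) was called, with LFCs of -0.28 to 0.70. Of these, Ugt2b35 (LFC 0.70, FDR = 0.072) depended on single mice, with LFCs of 0.14 without FeSO4/PBS mouse 1, 0.97 without mouse 2 (FDR = 0.013) and 0.86 without mouse 3 (FDR = 0.049). Scaling by library size alone called Ugt2b1 (LFC -0.46, FDR = 0.046) and Ugt2b36 (-0.41, FDR = 0.024) lower. Ugt2b34, among the highest of them, had 9224, 7582 and 7893 against 7123, 9809.6 and 8190.1 normalized counts. Ugt1a1 had 4849, 4778 and 4656 against 3674, 4959 and 5039, with an interval of the LFC of -0.32 to 0.20. That of Ugt2b34 was -0.27 to 0.32. Both intervals hold for TMM scaling, and by library size alone Ugt1a1 was called lower (LFC -0.38, FDR = 0.033). Ugt1a9 (ENSMUSG00000090175, chr1:87998450-88147724), which glucuronidates phenols, was the 1 UGT gene called higher, from 667, 897 and 751 to 1109.8, 1483 and 1194 normalized counts (LFC 0.71, SE 0.15, FDR = 0.0012). Ugt1a6a (chr1:88062222-88147724) fell from 331, 203 and 239 to 81.6, 65.1 and 75.2 (LFC -1.80, SE 0.32, FDR = 0.00029), which is 3.48-fold lower, with the limit on its reads given above. Ugt1a6b, the paralog beside it, had 396, 324 and 316 against 282, 471 and 455 normalized counts and was not called (FDR = 0.35). Without FeSO4/PBS mouse 1, Ugt1a6b was called higher (LFC 0.43, FDR = 0.035). Ugt3a2, whose human counterpart prefers UDP-glucose as the sugar donor, fell from 1122, 971 and 1082 to 577, 859.6 and 788 (LFC -0.51, SE 0.19, FDR = 0.03). Its call was lost without NaCl/PBS mouse 1 (FDR = 0.086), NaCl/PBS mouse 3 (FDR = 0.071) or FeSO4/PBS mouse 1 (FDR = 0.11). Ugt3a1 had 9184, 8024 and 7913 against 5922, 7822 and 7573 normalized counts (LFC -0.24). It was not called with TMM scaling, although its groups did not overlap (31% of all tested genes were lower without overlap). By library size alone Ugt3a1 was called lower (LFC -0.55, FDR = 0.0049).

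Among the SULT genes the 2 that fell are neighbours. Sult3a1 and Sult3a2 lie within 114 kb on chromosome 10 (chr10:33642420-33756605), and Sult3a1 is known to sulfonate amines. Sult3a2 fell from 127, 152 and 66 to 21.2, 39.7 and 8.93 normalized counts, 4.82-fold (LFC -2.27, SE 0.53, FDR = 0.0025). Sult3a1 fell from 2111, 2764 and 2012 to 743, 1717 and 1245 (LFC -0.89, SE 0.33, FDR = 0.032). The groups did not overlap in either gene (31% of all tested genes were lower without overlap), and the call of Sult3a1 was lost without FeSO4/PBS mouse 1 (FDR = 0.12), FeSO4/PBS mouse 3 (FDR = 0.072) or NaCl/PBS mouse 2 (FDR = 0.11). The abundant SULT genes were not called in the main fit. With no filter on low counts, Sult2a1 (LFC -0.38, FDR = 0.028) and Sult2a5 (-0.65, FDR = 0.017) were called lower and Sult1e1 (1.49, FDR = 4.4e-06) higher. By library size alone Sult1b1 was called lower (LFC -0.45, FDR = 0.022). Sult1a1, the main phenol sulfotransferase, had 8907, 8781 and 9855 against 9433, 10008 and 7156 normalized counts, with an interval of the LFC of -0.39 to 0.28. Sult2a8 had 9978, 8355 and 10602 against 6782, 9176 and 7962 (LFC -0.27, FDR = 0.11), and was called lower without FeSO4/PBS mouse 2 (LFC -0.39, FDR = 0.047) and with library size alone (-0.59, FDR = 0.0043). Sult2a1 and Sult2a2, which sulfate steroids and bile acids, varied widely among mice of 1 group, from 3195 to 5561 normalized counts of Sult2a1 in NaCl/PBS mice. Sult1e1, the estrogen sulfotransferase, varied most of all tested SULT genes, with 14.4, 66.4 and 1.69 against 183, 28.5 and 11.5, and its LFC of 1.5 ± 0.91 (SE) was not called (FDR = 0.18). Its LFC rests on single mice, at -0.38 without FeSO4/PBS mouse 1 (FDR = 0.75) and 3.16 without NaCl/PBS mouse 2 (FDR = 0.022), the highest mouse of each group.

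**Figure D3:**
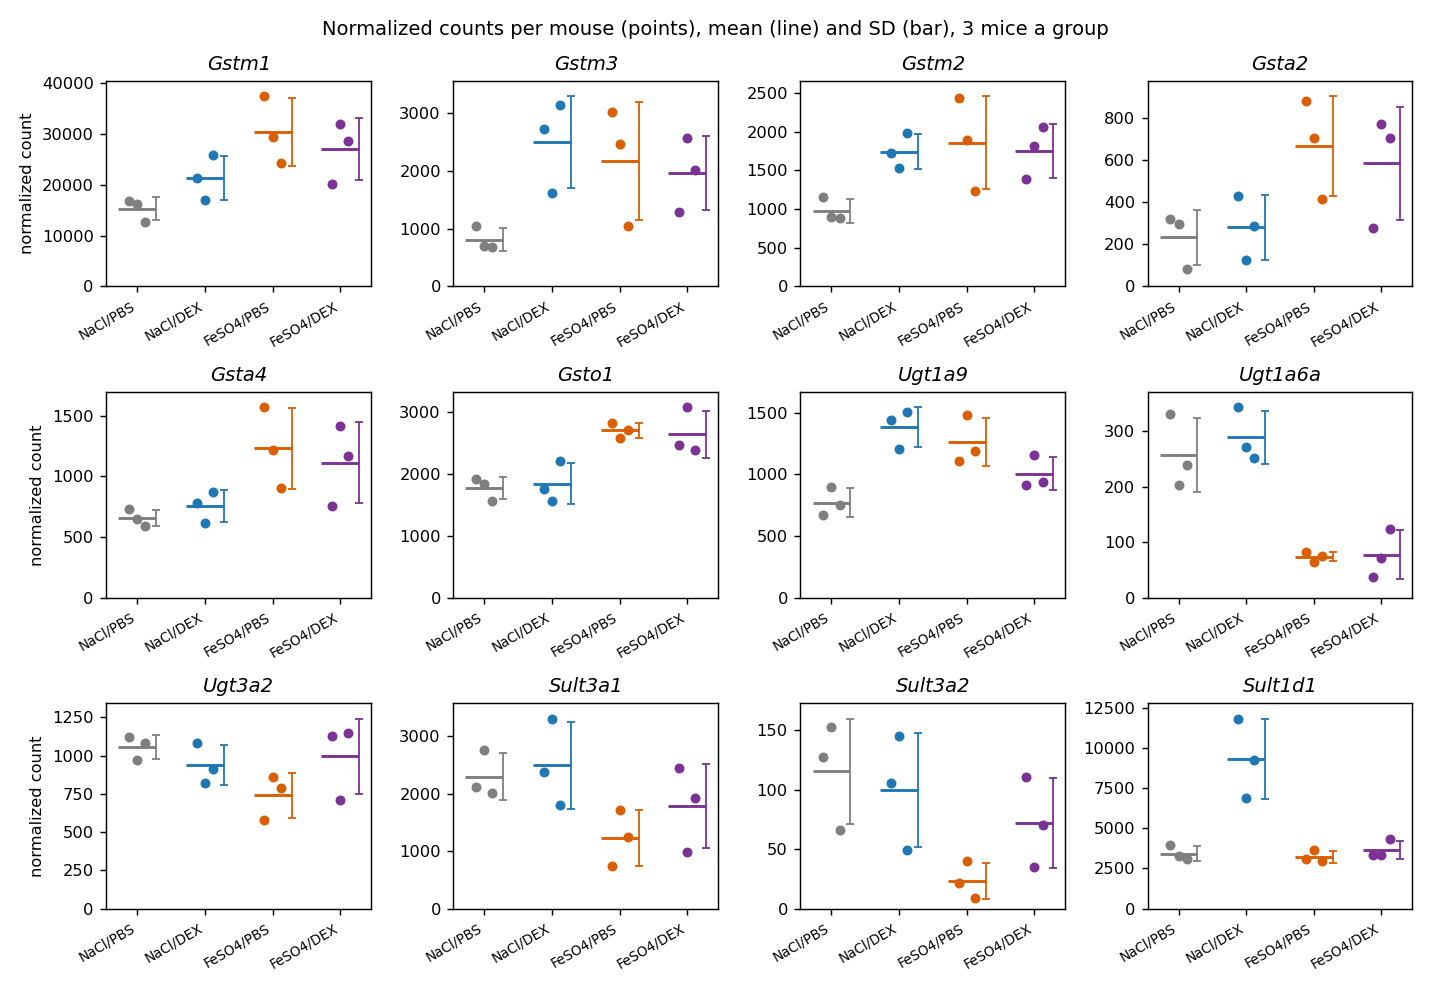
Normalized counts of 12 genes in each mouse (points) with the mean (line) and SD (bar) of the 3 mice in each group, every axis starting at 0. The 3 FeSO4/PBS mice lie above the 3 NaCl/PBS mice in Gstm1, Gstm2, Gsta2, Gsta4, Gsto1 and Ugt1a9 and below them in Ugt1a6a, Ugt3a2, Sult3a1 and Sult3a2. In Gstm3 the lowest FeSO4/PBS mouse is level with the highest NaCl/PBS mouse, and in Sult1d1 the NaCl/DEX mice stand apart.

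Summed over each family, the mean normalized count of the GST genes was 98327 ± 9058 (SD, n = 3) in NaCl/PBS and 126189 ± 19356 in FeSO4/PBS mice. The ranges met, since the lowest FeSO4/PBS mouse (105148) was below the highest control mouse (107676). The sum of the UGT genes was 52815 ± 4989 against 53392 ± 5351, and that of the SULT genes 33492 ± 3227 against 28497 ± 4704, both with overlapping mice. With 3 mice against 3, an exact permutation test of such a sum cannot give a p below 0.1, so none was run. Within the GST sum, the share of Gstm1 was 15.5% in NaCl/PBS and 24.1% in FeSO4/PBS mice, that of Gsta3 20.5% and 15.6%, and that of Mgst1 35.3% and 32.9%. Scaled by library size alone, the GST sums of the 2 groups were 5719 and 5868 CPM, against 4963 and 6370 CPM with TMM scaling, so the difference between the sums depends on the scaling. By library size alone the UGT sums were 3073 ± 300.02 and 2492 ± 279 CPM (SD, n = 3) and the SULT sums 1949 ± 197 and 1329 ± 218 CPM, against 2666 and 2695 CPM for UGT and 1691 and 1438 CPM for SULT genes with TMM scaling.

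**Figure D4:**
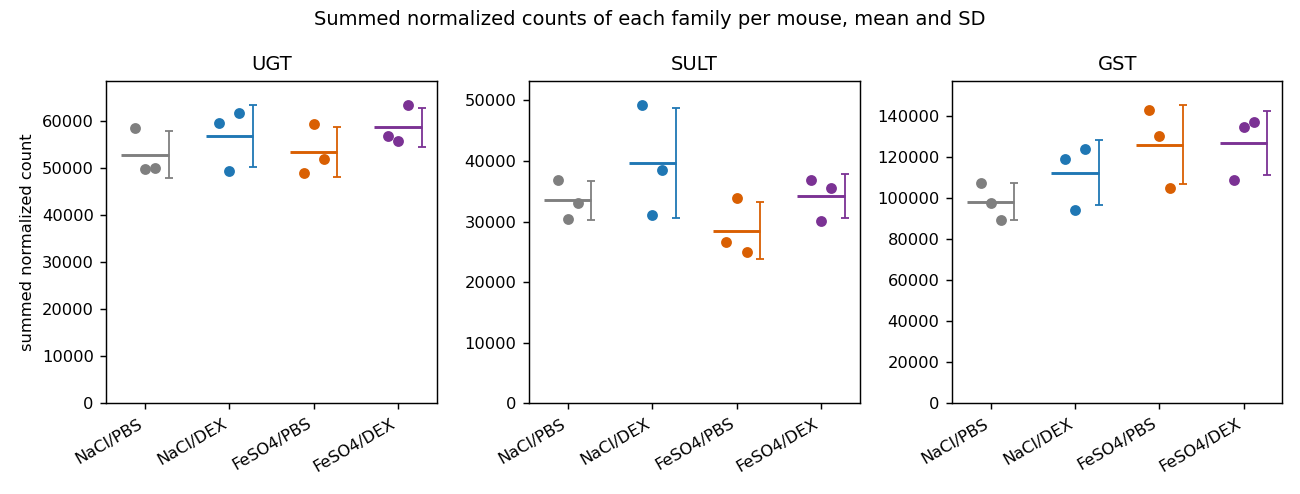
Summed normalized counts of the 18 UGT, 14 SULT and 25 GST genes in each mouse (points), with mean (line) and SD (bar) of 3 mice a group, on axes that start at 0. The GST sums average 98327 normalized counts in NaCl/PBS, 126189 in FeSO4/PBS, 112442 in NaCl/DEX and 126880 in FeSO4/DEX mice, where both DEX groups overlap, and the lowest FeSO4/PBS mouse (105148) lies below the highest NaCl/PBS mouse (107676).

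Genes of a family also varied together between mice of 1 group, so they do not count as independent measurements. How often each mouse was the lowest or highest over all tested genes was not counted. The counts below therefore do not show a trait particular to these families. In the GST family FeSO4/PBS mouse 3 was the lowest of its group in 21 of 23 tested GST genes, NaCl/DEX mouse 2 in 21 and FeSO4/DEX mouse 1 in 19. NaCl/PBS mouse 1 was the highest of its group in 19 and FeSO4/PBS mouse 1 in 18. In the UGT family NaCl/PBS mouse 1 was the highest of its group in 13 of 17 genes, and in FeSO4/PBS mice mouse 2 was the highest and mouse 1 the lowest in 12. In the SULT family FeSO4/PBS mouse 3 and FeSO4/DEX mouse 2 were the lowest of their groups in 10 of 14 genes, and FeSO4/PBS mouse 2 was the highest in 10. The coefficient of variation within groups, averaged over the 4 groups, had a median of 16.6% for the tested UGT, 31.7% for the SULT and 19.5% for the GST genes. The widest spreads were those of Gsta13 (97.3%), Sult1e1 (84.6%) and Sult2a3 (75.7%), and in Sult2a3 NaCl/DEX mouse 1 alone stood at 190 normalized counts against 4.70 and 8.05 in the other mice of its group.

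The comparison of FeSO4/DEX with NaCl/DEX mice gives the FeSO4 effect in mice that had also received DEX. Here 11 of the 54 genes were called, 7 higher and 4 lower (9 of 52, 5 and 4, without Gsta1 and Gsta13), beside 43.3% of all tested genes, 22.4% higher and 20.9% lower. Scaling by library size alone, with Gsta1 and Gsta13 kept in, gave 3 higher and 6 lower. Under it Gstm6 (FDR = 0.12), Gstm7 (0.15), Gsto1 (0.059) and Sult1b1 (0.24) lost their call. Apart from Gsta1 and Gsta13, 4 of 21 GST genes were higher and 0 lower, namely Gstm4 (LFC 0.70), Gstm6 (0.53), Gstm7 (0.45) and Gsto1 (0.52). Gsta1 had 6, 3 and 4 reads in NaCl/DEX and 35, 39 and 38 in FeSO4/DEX mice (LFC 3.29), and Gsta13 0, 1 and 0 and 16, 23 and 14 reads. With 1 read of Gsta13 in all NaCl/DEX mice together, no fold is given. The calls of Gstm4, Gstm6, Gstm7 and Gsto1 were all lost without FeSO4/DEX mouse 2 (FDR = 0.059 to 0.098), and those of the 3 Gstm genes also without NaCl/DEX mouse 2 (0.058 to 0.13). Gstm6 and Gstm7 lost their call without FeSO4/DEX mouse 3 too (0.19 and 0.084), and Gstm7 without NaCl/DEX mouse 1 (0.063). Sult1b1 was called higher (LFC 0.42, FDR = 0.043), a call lost without any 1 of 8 mice (FDR = 0.059 to 0.18). Called lower were Sult1d1 (LFC -1.35, FDR = 5.1e-05), Ugt1a6a (-1.91, FDR = 0.00027) and Ugt1a9 (-0.46, FDR = 0.022). The call of Ugt1a9 was lost without mouse 1 or 3 of either group (FDR = 0.058 to 0.08). Ugt1a10 is the other of the 4 lower genes, with 36, 46 and 38 reads in NaCl/DEX and 10, 8 and 8 in FeSO4/DEX mice (LFC -1.99). It passed the filter through NaCl mice, so its value here is a description and no test. Ugt1a6a stood at 343, 272 and 253 normalized counts in NaCl/DEX and 36.7, 72 and 124 in FeSO4/DEX mice, so it was low in all 6 FeSO4 mice, and its interaction term was -0.11 ± 0.45 (SE, FDR = 0.92).

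The comparison of NaCl/DEX with NaCl/PBS mice gives the response to the GC without iron, 2 h after DEX. It called 5 of the 54 genes, all higher, beside 13.7% of all tested genes, 6.5% higher and 7.15% lower. Scaling by library size alone gave 5 higher and 2 lower. The lowest FDR was that of Sult1d1 (ENSMUSG00000029273, chr5:87702504-87716933), a mouse sulfotransferase that acts on catecholamines. Sult1d1 had 3939, 3250.3 and 3091 normalized counts in NaCl/PBS and 11826, 6871 and 9229 in NaCl/DEX mice, a 2.72-fold rise (LFC 1.44, SE 0.18, FDR = 0.00012). Every NaCl/DEX mouse was above every mouse of the other 3 groups. Gstm3 rose from 1039, 707 and 681 to 2728, 1609 and 3146 (LFC 1.62, SE 0.36, FDR = 0.0074), and its neighbour Gstm2 from 1157, 900.5 and 880.3 to 1722, 1525 and 1978 (LFC 0.83, SE 0.22, FDR = 0.019). In both genes the groups did not overlap, beside 17.6% of all tested genes that were higher without overlap, and the call of Gstm2 was lost without NaCl/DEX mouse 3 (FDR = 0.082), NaCl/PBS mouse 2 (0.063) or NaCl/PBS mouse 3 (0.082). Ugt1a9 rose from 667, 897 and 751 to 1439, 1206 and 1511 (LFC 0.85, SE 0.15, FDR = 0.0017). Ugt1a10, a low gene of the same locus, rose from 12.2, 19.6 and 9.31 to 38.6, 43.3 and 38.3 (LFC 1.55, SE 0.44, FDR = 0.03). Its call was lost without any 1 of the 6 mice but NaCl/PBS mouse 2 (FDR = 0.07 to 0.13). Ugt1a2 was not tested, and its reads were 0, 6 and 5 in NaCl/PBS and 19, 10 and 14 in NaCl/DEX mice. This comparison and that of FeSO4/PBS mice share their 3 control mice, so that a gene high or low in those controls moves in both.

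The promoters of Sult1d1 (chr5:87716934-87717233, minus strand) and Ugt1a9 (chr1:87998150-87998449, plus strand) are shown because these had the lowest FDR of the 54 genes after DEX. Neither of the windows holds a match to the core letters of a glucocorticoid response element, ACANNNTGT, or to the other cores named above, so there are no capitals. Among 15 genes whose promoters were aligned in pairs, Ugt1a9 and Ugt1a10 had 67.1% identical positions, second to Gsta1 and Gsta13. The other pairs had 41.5% to 52.6%. Ugt1a9 and Ugt1a10 were both called after DEX. The 15 left out pairs such as Sult2a1 and Sult2a2, whose windows are the same and which were not called after DEX.
Sult1d1: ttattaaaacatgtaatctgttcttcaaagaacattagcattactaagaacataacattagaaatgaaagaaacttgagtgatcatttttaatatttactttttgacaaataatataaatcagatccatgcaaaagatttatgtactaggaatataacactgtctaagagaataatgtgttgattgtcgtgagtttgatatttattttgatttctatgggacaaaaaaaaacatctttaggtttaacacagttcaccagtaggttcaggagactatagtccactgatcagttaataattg
Ugt1a9: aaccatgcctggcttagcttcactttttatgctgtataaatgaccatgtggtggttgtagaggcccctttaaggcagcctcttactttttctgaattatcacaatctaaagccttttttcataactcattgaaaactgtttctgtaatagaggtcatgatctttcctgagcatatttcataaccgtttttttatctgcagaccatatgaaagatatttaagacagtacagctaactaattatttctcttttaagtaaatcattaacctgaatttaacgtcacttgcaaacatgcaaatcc

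The comparison of FeSO4/DEX with FeSO4/PBS mice asks whether DEX acts on these genes after iron. Here edgeR called 0 of the 54 genes and 0 of all 13857 (0% called), with 5 of the 54 genes and 900 of all genes at an unadjusted p under 0.05, and DESeq2 called 0 of the 54 and 10 of all genes. Sult1d1 had 3104, 3644 and 2955 normalized counts in FeSO4/PBS and 3309.7, 3362 and 4303 in FeSO4/DEX mice, with an interval of the LFC of -0.18 to 0.54, which does not reach its LFC of 1.44 in NaCl mice. The 5 genes at an unadjusted p under 0.05 were Sult3a2 (LFC 1.61), Ugt2b1 (0.43), Ugt3a2 (0.43), Sult2a8 (0.31) and Ugt1a9 (-0.33), all with an FDR of 0.71 or 0.76.

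The difference between the 2 DEX responses was tested as an interaction. It called 3 of the 54 genes, all lower, beside 6.18% of all tested genes, 2.99% higher and 3.2% lower. These were Sult1d1 (LFC -1.26, SE 0.25, FDR = 0.0093), Ugt1a9 (LFC -1.18, SE 0.21, FDR = 0.0048) and Gstm3 (LFC -1.77, SE 0.50, FDR = 0.049), 1 gene of each family. The calls of Sult1d1 and Ugt1a9 held without each mouse in turn, whereas that of Gstm3 was lost without any 1 of 9 of the 12 mice (FDR = 0.053 to 0.12), all but FeSO4/DEX mouse 2, FeSO4/PBS mouse 3 and NaCl/DEX mouse 2, and with scaling by library size alone (0.052) or at least 10 reads in every library (0.053). Sult1d1 rose with DEX in NaCl mice alone and stood near the control level in both FeSO4 groups. Gstm3 averaged 809 ± 199 normalized counts (SD, n = 3) in control livers, 2494 ± 795 after DEX alone, 2173 ± 1019 after FeSO4 alone and 1960.2 ± 637 after both, and the mice of the 3 treated groups overlapped. Ugt1a9 averaged 771 ± 116, 1386 ± 159, 1262 ± 196 and 1005 ± 135 in the same order. For Gstm2 the same term was -0.92 ± 0.30 (SE) and not called (FDR = 0.095), and for Ugt1a10 it was -1.74 ± 0.69 (FDR = 0.16).

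**Figure D5:**
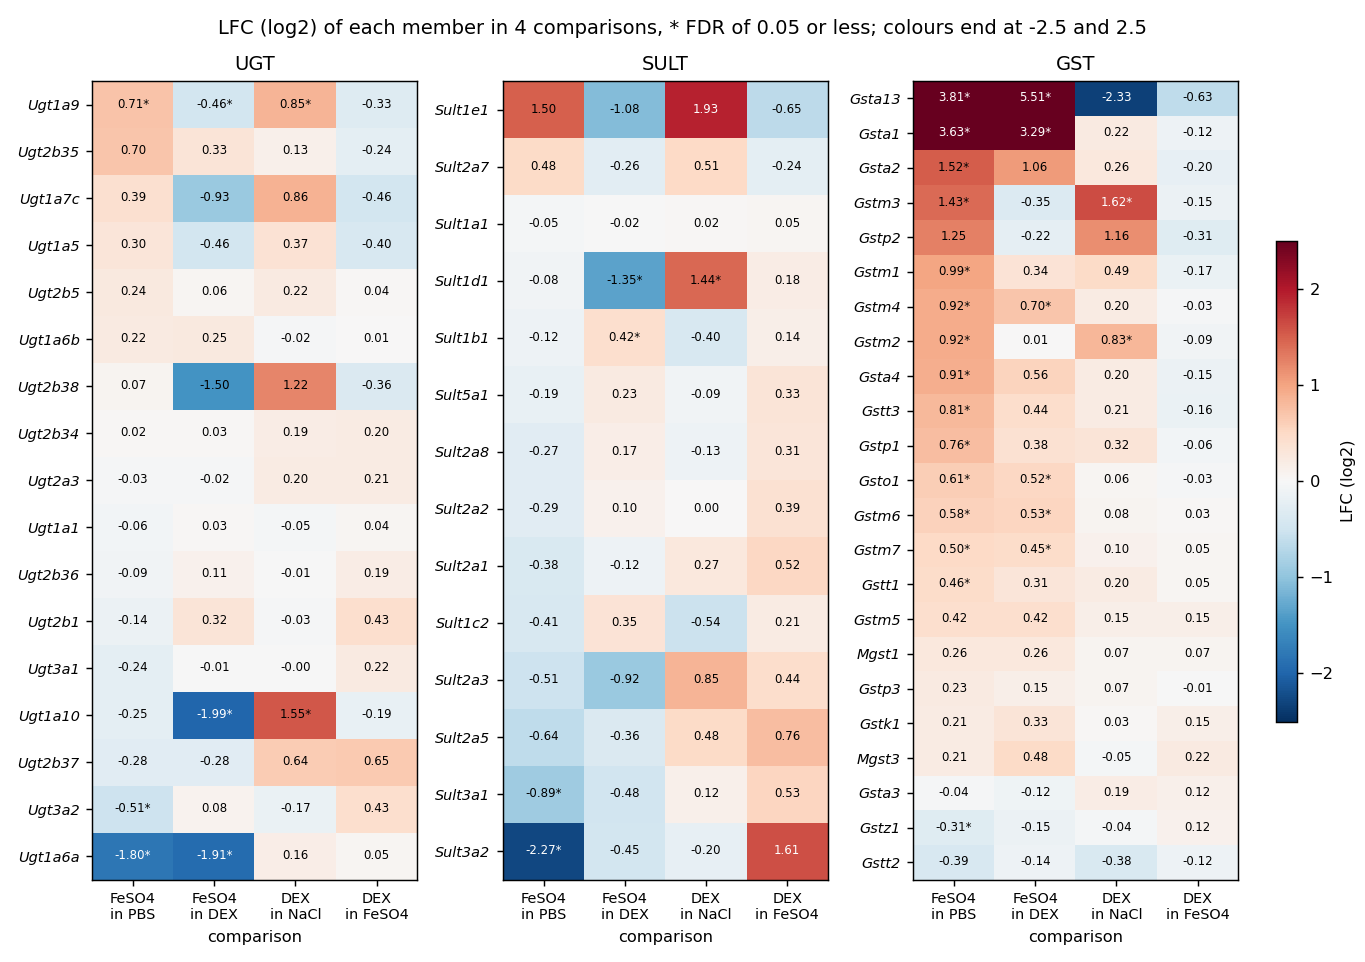
LFC (log2) of the 54 tested genes in 4 comparisons, by family and in the order of the FeSO4 effect in PBS mice, with * for an FDR of 0.05 or less and colours that end at -2.5 and 2.5. The columns for FeSO4 in PBS mice and DEX in NaCl mice share the NaCl/PBS mice, and the column for DEX in FeSO4 mice has no *. The values of Gsta1 and Gsta13 rest on few reads in NaCl mice, and those of Ugt1a10 on few reads in FeSO4 mice.

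Few of these genes held the motif letters in the 300 bases before their starts. The core of the antioxidant response element occurred in 3 of 57 promoters (Gsta3, Gstm5 and Ugt3a2), against 11.2% of 21627 promoters of protein-coding genes. None of these 3 genes was called higher after FeSO4, and Ugt3a2 was called lower in PBS mice. Only the letters TGACNNNGC were searched for this element, so other forms of it were not counted. The xenobiotic response element core occurred in Gstm2 and Ugt1a5, against 5.61% of all promoters. The glucocorticoid response element core occurred in 5 genes, Gstm4, Sult2a1, Sult2a2, Sult2a8 and Ugt1a7c, against 6.54%, and none of them was called after DEX. Both strands were searched, no promoter of the 57 held more than 1 of the 3 motifs, and a match describes the letters in this window alone.

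Genes that supply, follow or control the conjugation enzymes were taken as 9 lists, whose counts stand beside 27.2% of all tested genes higher and 27.3% lower after FeSO4 in PBS mice. After FeSO4 in PBS mice the glutathione and NRF2 lists had no gene called lower. Of 10 glutathione supply and recycling genes 7 were higher and 0 lower, with a median LFC of 1.09 against -0.02 for all genes, led by Slc3a2 (LFC 1.70, FDR = 2.6e-06) and Slc7a11 (LFC 6.58, FDR = 2.8e-05), the 2 chains of the cystine transporter, and Gsr (LFC 1.42, FDR = 8.6e-06), glutathione reductase. Of 16 NRF2 pathway genes 13 were higher and 0 lower (median LFC 1.53), led by Hmox1 (LFC 6.02, FDR = 3.3e-09), which degrades heme, Mafk (LFC 1.99, FDR = 1e-07) and Srxn1 (LFC 3.34, FDR = 3.6e-07). The glutathione list shares Gclc, Gclm and Slc7a11 with the NRF2 list, and the list of other conjugation enzymes shares Nqo1 and Ephx1 with it. Cyp1a2 and Aldh1a1 are both among the targets of AhR, CAR and PXR and among the pericentral markers below. For UDP-glucuronate supply, 4 of 8 genes were higher and 1 lower, among them Ugdh (LFC 1.07, FDR = 0.0065), which makes UDP-glucuronate, Ugp2 (LFC 0.49, FDR = 0.017) and Slc35d2 (LFC -0.59, FDR = 0.0045). For sulfate donor supply and turnover, 2 of 9 were higher and 3 lower, led by Slc35b3 (LFC 1.38, FDR = 2.5e-06) and Slc35b2 (LFC -0.97, FDR = 2.4e-05), which carry PAPS into the Golgi, and Slc26a1 (LFC -1.28, FDR = 2.8e-06), a sulfate transporter. The PAPS synthases were not among the called genes.

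Steps behind conjugation moved in both directions. Of 10 tested mercapturate pathway genes 1 was higher and 3 were lower, led by Nat8f2 (LFC -2.0, FDR = 6.9e-07), Anpep (LFC -0.68, FDR = 0.00044) and Acy3 (LFC -0.62, FDR = 0.0034). Of 14 conjugate transporters 2 were higher and 3 lower, led by Slco1b2 (LFC -1.18, FDR = 0.00053), a hepatic uptake transporter, Abcc5 (LFC -0.84, FDR = 0.007) and Abcc3 (LFC 0.51, FDR = 0.0085), an exporter of glucuronides to blood. Of 13 other conjugation enzymes 4 were higher and 4 lower, led by Glyat (LFC -0.79, FDR = 6.8e-05), Tpmt (LFC -0.85, FDR = 0.00017) and Nat1 (LFC -2.18, FDR = 0.0024). Of 14 xenobiotic receptors and cofactors 4 were higher and 8 lower, led by Nr1i3 (LFC -2.28, FDR = 8.1e-07), which is CAR, Hnf4a (LFC 0.98, FDR = 6.9e-06) and Nr3c1 (LFC -0.89, FDR = 0.00018), the GC receptor. Of 11 tested target genes of AhR, CAR and PXR 4 were higher and 0 lower, led by Tiparp (LFC 4.26, FDR = 5.4e-08), Cyp2b10 (LFC 1.72, FDR = 3.9e-05) and Por (LFC 0.90, FDR = 7.3e-05). After DEX in NaCl mice, where 6.5% of all tested genes were higher and 7.15% lower, 5 of those 11 were higher and 0 lower, led by Cyp2b10 (LFC 4.70, FDR = 9.4e-08), Alas1 (LFC 1.97, FDR = 3.4e-06) and Tiparp (LFC 2.05, FDR = 9.1e-05), whereas 0 of the glutathione, 0 of the transporter and 0 of the other conjugation genes were called. The NRF2 list then had 1 gene higher and 2 lower, Maff (LFC 2.62, FDR = 4e-05), Osgin1 (LFC -3.22, FDR = 8.4e-05) and Nfe2l2 (LFC -0.73, FDR = 0.00053), and the receptors 3 higher and 2 lower, led by Ahr (LFC 1.47, FDR = 0.00018), Nr1i2 (LFC 0.74, FDR = 0.0003), which is PXR, and Nr1i3 (LFC -0.96, FDR = 0.0043). In the remaining lists, UDP-glucuronate supply had 1 gene higher and 1 lower (Gusb (LFC 0.51, FDR = 0.014) and Slc35d2 (LFC -1.17, FDR = 0.00017)), sulfate donor supply 1 higher (Slc26a2 (LFC 0.84, FDR = 0.008)) and the mercapturate pathway 1 lower (Ggt6 (LFC -0.79, FDR = 0.03)). After FeSO4 in DEX mice (all genes 22.4% higher and 20.9% lower) the glutathione list again had 7 of 10 and the NRF2 list 13 of 16 genes higher and 0 lower, and the AhR, CAR and PXR targets 1 higher and 3 lower of 11. For the interaction, 5 of those 11 targets were called lower and 0 higher, beside 3.2% and 2.99% of all genes.

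Markers of other cells moved with FeSO4 beside these genes, and in bulk liver fewer cells of a type and less RNA per cell cannot be told apart. After FeSO4 in PBS mice, with 27.2% of all genes higher and 27.3% lower, 6 of 9 hepatocyte markers were higher and 0 lower, with summed normalized counts of 2063150 to 2417190 in NaCl/PBS and 2687250 to 3068150 in FeSO4/PBS mice, and none was at 0 in all libraries. In NaCl/DEX and FeSO4/DEX mice the hepatocyte sums were 2527960 to 2807830 and 3026040 to 3200440. Of 6 tested neutrophil markers 5 were higher and 0 lower, with sums of 116 to 308 and 778 to 936. Of 9 Kupffer cell and macrophage markers 0 were higher and 7 lower, with sums of 7338 to 8600 and 4669 to 5383. Pericentral hepatocyte markers had 1 higher and 2 lower of 10 (207241 to 229141 and 184326 to 214617) and periportal markers 5 higher and 2 lower of 10 (124048 to 151102 and 124195 to 188702). Cholangiocyte markers had 2 higher and 1 lower of 6 (799.9 to 919 and 1198 to 1488), endothelial markers 3 and 3 of 8 (5159 to 5989 and 5242 to 6699), stellate cell markers 3 and 1 of 8 (6901 to 7178 and 8237 to 11178) and red blood cell markers 3 and 0 of 5 (1567 to 3730.3 and 2886 to 5559). Lymphocyte markers had 0 and 1 of 7 (91.6 to 111 and 87.7 to 97.7), mesothelial markers 0 and 1 of 2 (26.6 to 66.9 and 6.1 to 12.8) and intestine and pancreas markers 0 and 0 of 2 (895 to 1133 and 838 to 887), where Prss2, Cpa1, Pnlip and Ctrb1 were at 0 in every library. In NaCl/DEX mice the neutrophil sums were 86.6 to 129.8 and the Kupffer cell sums 7198 to 8061, and in FeSO4/DEX mice 595 to 714 and 4233 to 6326. The part of these cell types in the changes of the conjugation enzymes was not tested.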

How the data were processed

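Liver RNA of 12 mice, 3 in each of 4 groups, was sequenced as single-end stranded mRNA libraries. According to the paper and the submitters' processing notes, the authors used FastQC for quality, STAR 2.7.10b for alignment to mm39 with GENCODE splice junctions, and STAR's own gene counting, which keeps uniquely mapped reads. Which strand column was taken is not given in the sources used here. The authors deposited whole-number counts for 55414 Ensembl genes without normalization. Symbols and positions came from GENCODE vM39 (GRCm39, the same assembly as mm39) for 54749 of them, so exons may differ from those the authors counted.

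From these counts, edgeR 4.0.16 (R 4.3.3) was run on all 12 libraries with 1 mean per group, filterByExpr (13857 genes kept), TMM factors, a prior count of 0.125 and the quasi-likelihood F test, without a replicate block. Gene-wise spread was summarised by a biological coefficient of variation of 0.169, with 5.93 prior degrees of freedom. FeSO4 was contrasted with NaCl among PBS and among DEX mice, DEX with PBS among NaCl and among FeSO4 mice, and the interaction was tested. Intervals of an LFC are 2 SE to either side. Levels per length used exon bases that no other gene of the same strand covers. Windows of 100 bases were searched in all vM39 transcripts, and 300 bases before each canonical start were read from GRCm39 and aligned with Biopython 1.88. Figures used matplotlib 3.10.9. The model was tested on simulated data of the FeSO4 comparison in PBS mice, where it found 199 of 200 genes moved by 1.5 on the log2 scale (99.5%) among 13581, with 14 false calls. In the data of that comparison 54.5% of all genes were called, and called LFCs were as small as -0.31 (Gstz1). The simulation therefore gives no rate of recovery for such small changes or with so many genes moving.

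The genes, the lists and the tests were chosen with earlier results of these data known, so the counts over a list describe it and do not test it. Named with values were, in each family, up to 3 highest and 3 lowest LFCs among genes called after FeSO4 with at least 100 normalized counts in the higher group, the 3 highest levels per length, all genes called after DEX or for the interaction, the untested genes, and up to 3 called genes of lowest FDR per pathway list; Gsta1, Gsta13, Gsta4, Gstm2, Gstm4, Gstm5, Gsto1, Gstp1 and other genes of a locus were added after their values had been seen. Alternatives were DESeq2 1.42.0, DESeq2's size factors, library size alone, 2 other filters, a block for the replicate number, a fit of each comparison by itself, an LFC beyond 1, another length and each mouse left out in turn. Leaving out the 8 genes of uncertain reads, or the 2 genes at the filter level in fewer than 3 NaCl libraries, was chosen after seeing the data. The deposited labels number the mice as replicates and were taken as separate animals. Replicate mice differed by more than sampling noise (chi-square per gene of 12.4 to 59), and 3 mice a group limit the precision more than depth does. The 2 highest values, 59 and 47.2, were those of FeSO4/PBS mouse 1 against mice 2 and 3 of its group. No other pair was above 24.7. Promoters were found for all 57 genes, and protein sequences were not used here.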

Additional observations from a re-analysis of the deposited data

Results flagged for a closer look

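For 3 genes the FeSO4 effect differed between PBS and DEX mice by a test of the difference itself, the interaction term of edgeR's quasi-likelihood model. Sult1d1 had an LFC of -0.08 after FeSO4 in PBS mice and -1.35 in DEX mice, a difference of -1.26 ± 0.25 (SE, FDR = 0.0093). Ugt1a9 had 0.71 and -0.46, a difference of -1.18 ± 0.21 (SE, FDR = 0.0048). Gstm3 had 1.43 and -0.35, a difference of -1.77 ± 0.50 (SE, FDR = 0.049). The call of Gstm3 was lost without any 1 of 9 of the 12 mice (FDR = 0.053 to 0.12). Groups of 3 mice are too small for a test of single outlying mice.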

How the results depend on the processing

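The counts in this section keep Gsta1 and Gsta13 wherever they were tested, unless stated otherwise. With library size alone the genes called after FeSO4 in PBS mice were 10 higher and 12 lower, in DEX mice 3 higher and 6 lower, after DEX in NaCl mice 5 higher and 2 lower, and for the interaction 2 lower. Of the genes called after FeSO4 in PBS mice, 7 were then UGT and 4 SULT genes. This scaling shifts the median LFC of all genes to -0.34 and -0.18 for FeSO4 in PBS and DEX mice, to -0.18 for DEX in NaCl mice and to 0.15 for the interaction. It called 8114, 6297, 2394 and 902 of all 13857 genes in these comparisons, in the same order. With no filter on low counts, 12 genes were higher and 11 lower after FeSO4 in DEX mice, 8 higher after DEX in NaCl mice, 3 higher after DEX in FeSO4 mice, and 1 higher and 7 lower for the interaction, with 5 SULT genes called after FeSO4 in PBS mice. Of the 25013 genes tested without the filter, 6161, 2377, 170 and 1459 were called in these comparisons. After FeSO4 in PBS mice 7743 were called. With at least 10 reads in every library 1 SULT gene was called after FeSO4 in PBS mice, beside 6320 of all 11231 genes tested. Asking for an LFC beyond 1 left 4 higher and 2 lower after FeSO4 in PBS mice (4 GST, of which Gsta1 and Gsta13 passed the filter only in FeSO4 mice, 1 UGT and 1 SULT), 2 higher after FeSO4 in DEX mice (0 without Gsta1 and Gsta13) and 3 higher after DEX in NaCl mice. Of all tested genes, 1474 were higher by that limit after FeSO4 in DEX mice and 411 after DEX in NaCl mice. With the mice of the comparison alone, 2 genes were lower after DEX in NaCl mice, beside 2759 of all 13158 genes called in either direction. The causes of these shifts were not tested, except that the LFC limit by its construction calls fewer genes.

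With 1 mouse left out at a time there were 14 to 19 higher and 3 to 6 lower genes after FeSO4 in PBS mice, with 2 to 4 UGT, 1 to 3 SULT and 12 to 17 GST genes. There were 3 to 9 higher and 3 to 6 lower after FeSO4 in DEX mice, 3 to 5 higher and 0 to 1 lower after DEX in NaCl mice, 0 after DEX in FeSO4 mice, and 0 higher and 2 to 4 lower for the interaction. Of all genes tested, 6627 to 7622 were then called after FeSO4 in PBS mice and 5011 to 6753 in DEX mice. After DEX in NaCl mice 1187 to 2543 were called, and for the interaction 537 to 1018. The 3 higher genes after FeSO4 in DEX mice came without FeSO4/DEX mouse 2 or NaCl/DEX mouse 2 (4 without FeSO4/DEX mouse 3), and the 3 higher after DEX in NaCl mice without NaCl/DEX mouse 3 or NaCl/PBS mouse 3. The 3 lower genes after FeSO4 in PBS mice came without FeSO4/PBS mouse 1 or 3 or without any 1 of the NaCl/PBS mice.

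DESeq2 and DESeq2's size factors left each of these counts within 1.5 times its value, although Gstz1, the 1 GST gene called lower, lost its call with the size factors (FDR = 0.056). In the replicate block the counts were 15 higher and 4 lower after FeSO4 in PBS mice, 7 and 4 in DEX mice, 5 and 0 after DEX in NaCl mice, 0 and 0 in FeSO4 mice, and 0 and 2 for the interaction. Of all 13857 genes the block called 7268, 5692, 1754, 0 and 729 in the same order. The numbers do not pair the mice, since 2 of 18 same-numbered pairs had a correlation of their deviations over 0.1 (range -0.11 to 0.15) and 5 of 12 libraries correlated best with their own number. Without Gsta1 and Gsta13, 13 genes were higher and 5 lower after FeSO4 in PBS mice and 5 and 4 in DEX mice, with Ugt1a10 among these 4. Over single genes, 1273 of the values under an alternative stayed on their side of the threshold, 74 lost their call and 22 gained one, and 0 changed sign when called. In the block Gstz1 lost its call after FeSO4 in PBS mice (FDR = 0.065) and Gstm3 its call for the interaction (FDR = 0.077). Precision is limited by 3 mice a group, and for Gsta1, Gsta13, Ugt1a2, Mgst2 and Gsto2 also by depth.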
